A study of Mus musculus with 24 samples.

Results

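Insulin-like growth factor 1, its receptor and 5 of its binding proteins were followed in epididymal white adipose tissue (eWAT) of mice. The 7 genes, *Igf1*, *Igf1r*, *Igfbp3*, *Igfbp4*, *Igfbp5*, *Igfbp6* and *Igfbp7*, were taken by symbol from a table of 16730 genes, all 7 were found, and all 7 were among the 15020 genes that reached 1 CPM (counts scaled to the size of the library) in 3 or more mice. RNA of the whole eWAT of 24 male littermate mice was read by QuantSeq 3′ sequencing, with 1 library per mouse and 6 mice in each of 4 groups. Every mouse carried *Lama4* alleles flanked by loxP sites. *Lama4* fl/fl mice had no Cre, and *Lama4* AKO mice carried Cre under the adiponectin promoter, which acts in adipocytes and leaves the laminin alpha 4 gene of the other cells of the tissue in place. Chow-fed mice ate a breeder chow (5015) from weaning until 24 weeks of age, and mice on the high-fat diet (HFD; D12451, 45% fat) ate it from 6 to 26 weeks of age, and the labels give 20 weeks on either diet. Diet and age at collection therefore cannot be told apart. The libraries held 5579590 to 18764516 counts. In bulk tissue, fewer cells of a type and less RNA per cell cannot be told apart.

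IGF1 is a circulating and local growth factor that signals through the receptor tyrosine kinase IGF1R, largely by way of PI3K and AKT, and in adipose tissue it promotes the differentiation of preadipocytes, with macrophages among its sources. Most IGF in body fluids is held by binding proteins, which lengthen its half-life and keep it from the receptor or bring it to the cell surface. Proteases release it by cutting the binding proteins. IGFBP7 is a distant relative that binds IGF only weakly and lies in the matrix around vessels and stromal cells.

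The binding proteins are recognised by a stretch rich in cysteine near the start of the protein. Each coding sequence of the GENCODE M21 annotation (GRCm38) was searched in frame for 8 codons in which the first and the third begin with GG and the second, the fourth, the fifth and the last are TGC or TGT, the codons of cysteine. The match is shown for the 3 members that hold it. *Igfbp6* and *Igfbp7* held no match, but the pattern also asks for codons that begin with GG. The lack of a match therefore does not show that the cysteine codons are absent. Whether *Igfbp6* or *Igfbp7* holds the cysteine codons alone was not tested. Binding proteins other than these 5 were not searched. Capitals mark the cysteine codons.
Igfbp3: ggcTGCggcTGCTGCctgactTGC
Igfbp4: ggcTGCggtTGTTGCgccactTGC
Igfbp5: ggcTGTggcTGCTGCatgactTGC

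All 3 matches lie in coding sequence of exon 1. The match of *Igfbp3* starts at codon 68 (chr11:7213566-7213589, reverse strand), that of *Igfbp4* at codon 52 (chr11:99041650-99041673, forward strand) and that of *Igfbp5* at codon 51 (chr1:72873966-72873989, reverse strand). *Igfbp3* and *Igfbp5* share 22 of the 24 bases, *Igfbp3* and *Igfbp4* share 19, and *Igfbp4* and *Igfbp5* share 18. *Igf1*, *Igf1r*, *Igfbp6* and *Igfbp7* held no match to this pattern.

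The 250 bases before the RefSeq start site (GRCm38.p6) are shown for *Igfbp5* and *Igfbp7*, the members whose level passed the test for diet described below, in opposite directions. Capitals mark matches on either strand to TATAAA or TATTTAA, which are TATA-type boxes, and to GGGCGG, a GC box.
Igfbp5: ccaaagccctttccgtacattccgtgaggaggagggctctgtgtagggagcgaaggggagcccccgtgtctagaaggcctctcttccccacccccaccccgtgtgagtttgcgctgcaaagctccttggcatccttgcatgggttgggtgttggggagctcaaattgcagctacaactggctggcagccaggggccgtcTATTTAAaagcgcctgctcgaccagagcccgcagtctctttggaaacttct
Igfbp7: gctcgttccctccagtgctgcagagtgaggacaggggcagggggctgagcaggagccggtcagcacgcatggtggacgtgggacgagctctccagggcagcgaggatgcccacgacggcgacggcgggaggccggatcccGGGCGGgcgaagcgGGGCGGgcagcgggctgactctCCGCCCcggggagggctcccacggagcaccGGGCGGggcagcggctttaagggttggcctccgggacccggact

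The *Igfbp5* window (chr1:72874866-72875115, reverse strand) held 58.8% G and C and 1 TATTTAA, and no GC box. The *Igfbp7* window (chr5:77408046-77408295, reverse strand) held 74% G and C and 4 GC boxes, and neither TATA-type match. Of the 32851 promoters in the same table, 12.4% held TATAAA, 4.18% held TATTTAA and 32.7% held GGGCGG. Among the other members, *Igfbp4* and *Igfbp6* each held 1 TATAAA and *Igf1r* held 2 GC boxes, whereas *Igf1* and *Igfbp3* held none of these. These are matches of letters only and were not tested as sites of binding.

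On GRCm38, *Igf1* (ENSMUSG00000020053) spans chr10:87858265-87937042, *Igf1r* (ENSMUSG00000005533) chr7:67952827-68233668, *Igfbp3* (ENSMUSG00000020427) chr11:7206086-7213923 and *Igfbp4* (ENSMUSG00000017493) chr11:99041244-99054392. *Igfbp5* (ENSMUSG00000026185) spans chr1:72857932-72874884, *Igfbp6* (ENSMUSG00000023046) chr15:102144362-102149511 and *Igfbp7* (ENSMUSG00000036256) chr5:77349240-77408041.

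The 7 members spanned a wide range of abundance. QuantSeq gives about 1 read per transcript from its 3′ end, so CPM was compared between genes without division by length. *Igf1*, *Igfbp7* and *Igfbp4* were the most abundant, with medians over the 24 mice of 741, 728 and 743 CPM, and each was above at least 99.1% of the genes tested by its mean. The ranges of these 3 overlapped, at 466 to 1241 CPM for *Igf1*, 319 to 1179 for *Igfbp7* and 481 to 1027 for *Igfbp4*. *Igfbp5* followed with a median of 104 CPM and a range of 34.9 to 332, then *Igfbp6* with 50.7 CPM (28.2 to 112), *Igf1r* with 25.4 CPM (12.0 to 46.3) and *Igfbp3* with 5.82 CPM (1.35 to 21.8). In the order of the medians each gene overlapped its neighbours over the 24 mice, *Igfbp5* and *Igfbp7* only from 319 to 332 CPM. The highest mouse stood 16.1-fold above the lowest for *Igfbp3* and 9.53-fold for *Igfbp5*, but 2.14-fold for *Igfbp4* and 2.67-fold for *Igf1*. *Igfbp3* rested on the fewest reads, with 21 to 332 counts per library.

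**Figure D1:**
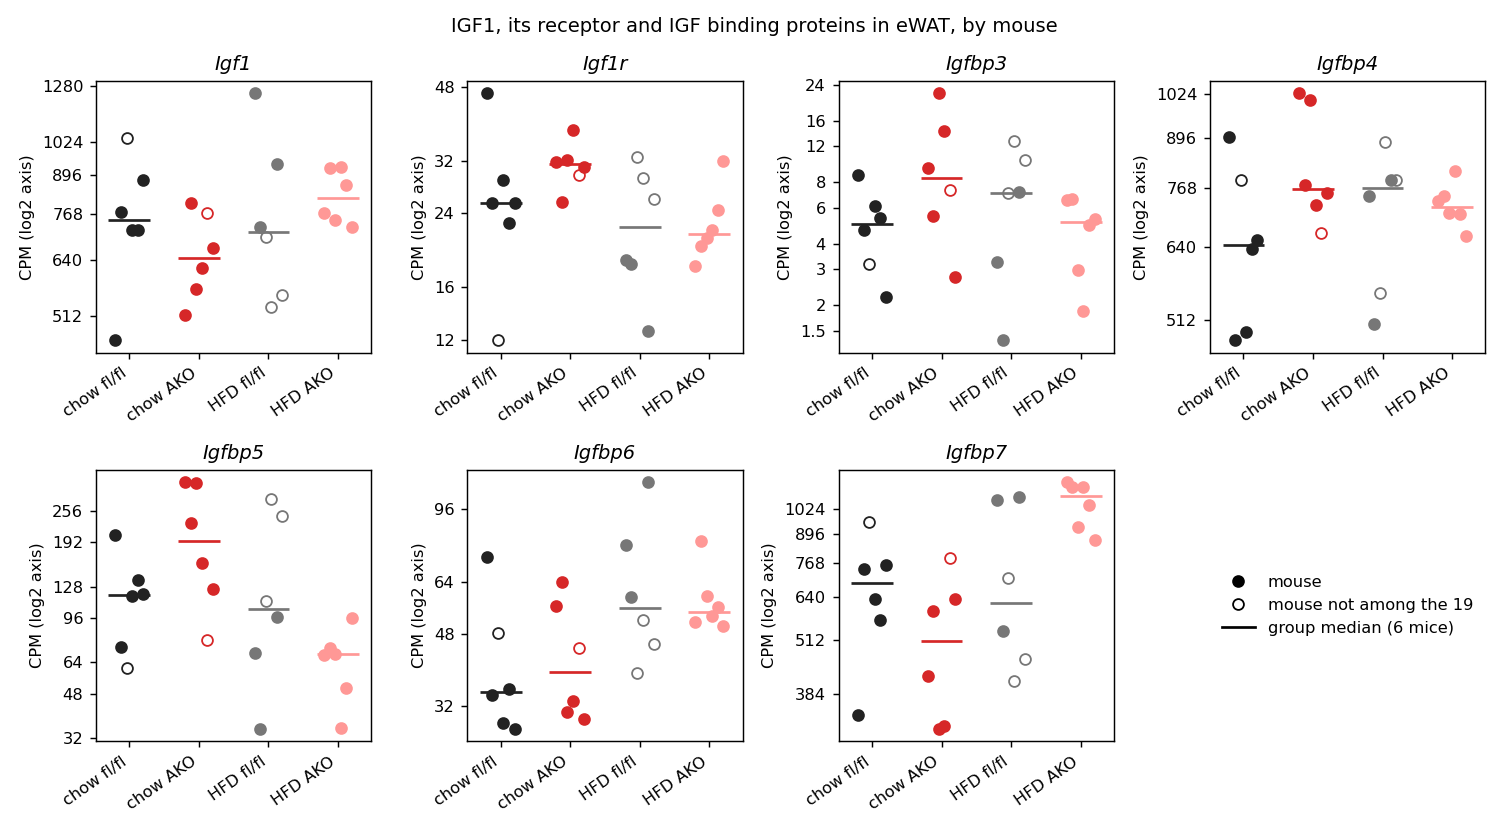
CPM on a log2 axis of each of the 7 genes in each of 24 mice, by group (chow or HFD, *Lama4* fl/fl or *Lama4* AKO, 6 mice each); lines are group medians and open points are the 5 mice not among the 19. HFD-fed AKO mice sit at the low end for *Igfbp5* (35.1 to 96.3 CPM) and above every chow-fed AKO mouse for *Igfbp7* (866 to 1179 against 319 to 787 CPM).

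Libraries differed within groups before any group is compared. On the first principal component of all genes, HFD-fed AKO mice lay at 0.850 to 61.5 and 10 of the 12 chow-fed mice at -91.8 to 6.18, but 3 HFD-fed fl/fl mice (replicates 3, 4 and 6) lay at -76.1 to -9.88, on the side of the chow-fed mice, against 48.2 to 73.5 for the other 3. The 2 chow-fed mice farthest on the side of the HFD were fl/fl replicate 3 (46.8) and AKO replicate 5 (22.1). The study set outliers aside on a plot of this kind without naming them in its text, and an earlier analysis of these counts took these 5 mice to be the ones set aside. Values for the 19 others are given as "19 mice" beside the results. Since the 5 were set aside on their expression, the 19 mice are not independent evidence of a difference between diets or genotypes. *Lama4* itself was at 98.4 ± 53.8 CPM (SD, n = 6) in chow-fed fl/fl and 106 ± 25.9 CPM in chow-fed AKO mice, and at 82.5 ± 42.2 and 51.2 ± 20.6 CPM on HFD. Its reads come from the 3′ end, outside the deleted exon 3, and so do not show the deletion itself. The study reported a knockdown of *Lama4* by quantitative PCR in eWAT of chow-fed AKO mice. These counts did not show it on chow (log2 difference 0.11, SE 0.34, adjusted p = 0.980 by edgeR), and the reason was not tested. The 10 adipocyte markers summed to at least 9008 CPM in every library, and of 10 epididymis markers *Lcn5* and *Adam7* were listed, at 0 in 20 and 17 of 24 libraries.

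The first question was how the members differed between HFD and chow within each genotype. Counts were fitted with edgeR's quasi-likelihood test over all 24 mice. A gene was called if its fold change reached 1.5, its nominal p was no more than 0.001 and the group with the higher mean had 2 CPM or more. This is the rule in the methods of the study. Its results give the last limit as 2 on a log scale of CPM, which is stricter and was not used here. In *Lama4* AKO mice 2 of the 7 members were called, *Igfbp5* lower and *Igfbp7* higher on HFD, where 4.12% of all genes tested were called (2.83% lower and 1.29% higher). *Igfbp3* also had a nominal p of at most 0.05, as had 39.8% of all genes. In *Lama4* fl/fl mice none of the 7 was called, where 0.173% of all genes were, and by edgeR 1 member, *Igfbp6*, had a nominal p of at most 0.05, as had 9.01% of all genes. In this and in each later comparison of the 24 mice in which edgeR called none of the 7, DESeq2 and limma-voom also called none. For diet in AKO mice DESeq2 called both *Igfbp5* and *Igfbp7*, limma-voom called *Igfbp7* alone (log2 difference of *Igfbp5* -1.53), and edgeR with the replicate number as a block called 0 of the 7 members.

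*Igfbp5*, a binding protein that attaches to the extracellular matrix, ran from 78.7 to 332 CPM with a median of 193 in chow-fed AKO mice, and from 35.1 to 96.3 CPM with a median of 69.0 in HFD-fed AKO mice. The groups overlapped through 1 mouse on each side, chow-fed replicate 5 (78.7 CPM) and HFD-fed replicate 6 (96.3 CPM), and the other 5 chow-fed mice were at 125 CPM or more. On HFD it fell by 1.67 on the log2 scale (SE 0.43, adjusted p = 0.0190 by edgeR over 15020 genes). In fl/fl mice it ran from 60.7 to 204 CPM on chow (median 118) and from 34.9 to 286 CPM on HFD (median 104). The HFD-fed fl/fl mice covered the range of all the other groups but the 2 highest chow-fed AKO mice, and the difference between diets was 0.24 (SE 0.42, adjusted p = 0.887). By mean the groups ran from HFD-fed AKO (65.6 ± 20.8 CPM, SD, n = 6) through chow-fed fl/fl (119 ± 50.9) and HFD-fed fl/fl (141 ± 101) to chow-fed AKO (209 ± 107), and the ranges of neighbours in that order overlapped.

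*Igfbp7*, the matrix-bound member that binds IGF weakly, went the other way. It ran from 319 to 787 CPM in chow-fed AKO mice (median 508) and from 866 to 1179 CPM in HFD-fed AKO mice (median 1096). Every HFD-fed AKO mouse was above every chow-fed AKO mouse, as was the case in one direction or the other for 6.86% of all genes tested. The log2 difference was 1.04 (SE 0.27, adjusted p = 0.0205), a 2.05-fold rise. In fl/fl mice *Igfbp7* ran from 343 to 954 CPM on chow (median 690) and from 411 to 1090 CPM on HFD (median 622), and the groups overlapped almost whole (log2 difference 0.10, SE 0.27, adjusted p = 0.930). The spread was also uneven, with an SD of 129 CPM in HFD-fed AKO mice and of 303 CPM in HFD-fed fl/fl mice, where replicates 1 and 5 were above 1070 CPM and the other 4 at 710 CPM or less.

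**Figure D2:**
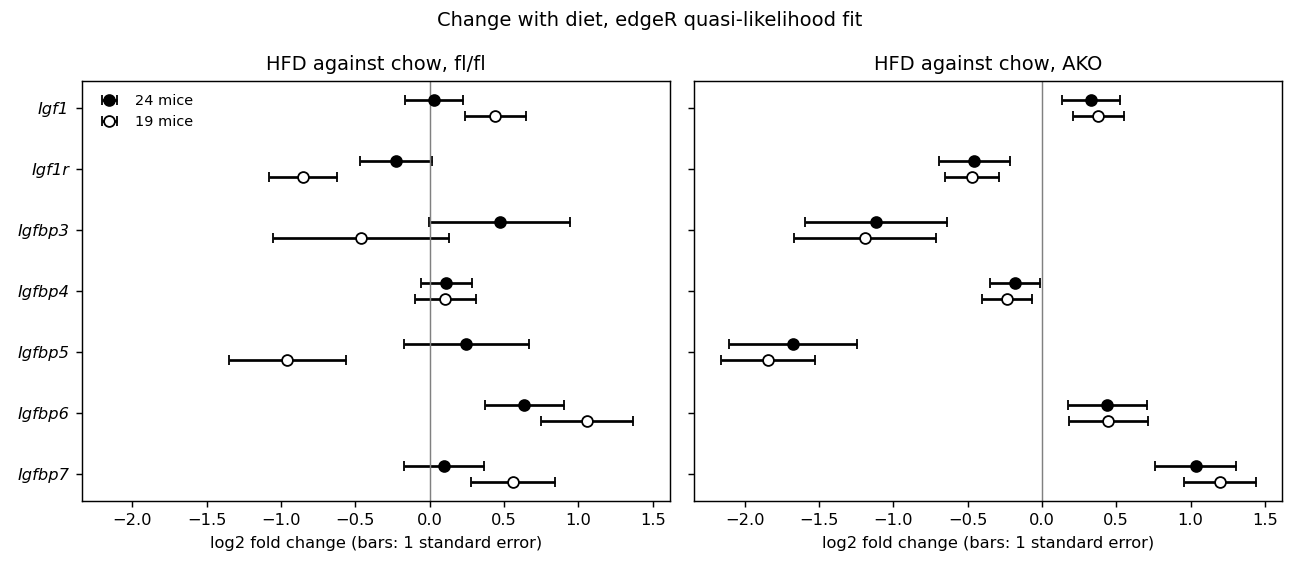
Log2 fold change of HFD against chow for the 7 genes in *Lama4* fl/fl (left) and *Lama4* AKO mice (right), with 1 standard error, from all 24 mice (filled) and from 19 mice (open). In AKO mice, of which the 19 leave out only chow-fed replicate 5, the 24-mouse and 19-mouse values lie close together (*Igfbp5* -1.67 and -1.84, *Igfbp7* 1.04 and 1.20). In fl/fl mice *Igfbp5* (0.24 and -0.96) and *Igfbp3* (0.47 and -0.46) have opposite signs.

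The nominal p of 0.001 lay close to the values of both calls, so leaving out 1 mouse often moved them across it. *Igfbp5* stayed called in 16 and *Igfbp7* in 10 of the 24 fits without 1 mouse, with log2 differences of -1.85 to -1.49 and 0.93 to 1.19. The call of *Igfbp5* was lost without chow-fed AKO replicate 1, 2 or 3 or without HFD-fed AKO replicate 1, 2, 3, 4 or 5, at adjusted p = 0.0337 to 0.0538. That of *Igfbp7* was lost without any of these 8 mice, without chow-fed AKO replicate 4, chow-fed fl/fl replicate 2, 4, 5 or 6, or HFD-fed fl/fl replicate 3, at adjusted p = 0.0219 to 0.0557. By an adjusted p of at most 0.05, which 16.1% of all genes passed with all mice, each was kept in 23 of 24 fits, and without chow-fed AKO replicate 3 the adjusted p was 0.0538 for *Igfbp5* and 0.0557 for *Igfbp7*.

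The ligand and its receptor passed in neither genotype. *Igf1* ran from 515 to 802 CPM (median 646) in chow-fed AKO and from 730 to 926 CPM (median 818) in HFD-fed AKO mice, a log2 difference of 0.33 (SE 0.20, adjusted p = 0.211). In fl/fl mice it ran from 466 to 1039 CPM (median 749) on chow and from 531 to 1241 CPM (median 716) on HFD, with a log2 difference of 0.03 (SE 0.20). *Igf1r* ran from 25.5 to 37.9 CPM (median 31.3) in chow-fed AKO and from 18.0 to 31.9 CPM (median 21.4) in HFD-fed AKO mice. Its log2 difference was -0.45 in AKO (SE 0.24, adjusted p = 0.158) and -0.23 in fl/fl mice (SE 0.24, adjusted p = 0.794), and the groups overlapped in both.

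The other binding proteins were not called in either genotype. *Igfbp3*, the main carrier of IGF in serum, ran from 2.76 to 21.8 CPM (median 8.37) in chow-fed AKO and from 1.88 to 6.65 CPM (median 5.11) in HFD-fed AKO mice (log2 difference -1.11, SE 0.48, adjusted p = 0.0871). In fl/fl mice its difference was 0.47 (SE 0.47). *Igfbp4*, an inhibitor of IGF action that the protease PAPP-A cuts, had differences of 0.11 in fl/fl and -0.18 in AKO mice (SE 0.17 in both). *Igfbp6*, which prefers IGF2, ran from 28.2 to 73.4 CPM (median 34.6) on chow and from 38.5 to 112 CPM (median 55.3) on HFD in fl/fl mice. The groups overlapped, and its log2 difference of 0.64 (SE 0.26) had an adjusted p of 0.506. In AKO mice it was 0.44 (SE 0.26, adjusted p = 0.214).

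Averaged over both genotypes, none of the 7 members met the call for diet, where 2.25% of all genes did. By edgeR 3 of them had a nominal p of at most 0.05, as had 35.5% of all genes: *Igfbp7* (log2 difference 0.57, SE 0.19, adjusted p = 0.0524), *Igfbp6* (0.54, SE 0.19, adjusted p = 0.0575) and *Igfbp5* (-0.71, SE 0.30, adjusted p = 0.0949). *Igfbp6* was called in 1 of 24 fits with 1 mouse left out (log2 difference 0.66). That fit lacked chow-fed fl/fl replicate 1, which had the highest *Igfbp6* of the chow-fed mice at 73.4 CPM. Since that mouse is extreme in the gene tested, nothing is drawn from the call. In the 19 mice 3 members were called, *Igfbp5* (-1.40, adjusted p = 0.000246), *Igfbp7* (0.88, adjusted p = 0.000723) and *Igf1r* (-0.66, adjusted p = 0.00117), where 21.4% of 14863 genes were called.

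In the 19 mice the AKO comparison of diets called *Igfbp5* (-1.84, SE 0.32, adjusted p = 0.000393) and *Igfbp7* (1.20, SE 0.24, adjusted p = 0.00116), where 15.7% of genes were called. The only AKO mouse left out, chow-fed replicate 5, had the lowest *Igfbp5* (78.7 CPM) and highest *Igfbp7* (787 CPM) of its group. Leaving it out widens both differences. In fl/fl mice the comparison of diets in the 19 called none of the 7, where 11.8% of genes were called. There edgeR gave 4 of them a nominal p of at most 0.05, as it gave 41.4% of genes. These were *Igf1r* (-0.85, adjusted p = 0.0102), *Igfbp6* (1.06, adjusted p = 0.0165), *Igfbp5* (-0.96, adjusted p = 0.0719) and *Igf1* (0.44, adjusted p = 0.109). The 3 HFD-fed fl/fl mice kept there had *Igfbp5* at 34.9, 69.7 and 96.6 CPM, beside the 35.1 to 96.3 CPM of HFD-fed AKO mice, and the 3 left out had 112, 244 and 286 CPM.

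The second question was whether *Lama4* AKO mice differed from *Lama4* fl/fl mice on the same diet. These comparisons share groups with those of diet above. On chow none of the 7 was called (0.113% of all genes were), and 1 had a nominal p of at most 0.05 by edgeR, as had 5.85% of all genes. This was *Igfbp3*, which ran from 2.21 to 8.66 CPM in fl/fl (median 5.02) and from 2.76 to 21.8 CPM in AKO mice (log2 difference 1.02, SE 0.47, adjusted p = 0.849). *Igfbp5* differed by 0.82 (SE 0.42) and *Igfbp4* by 0.33 (SE 0.17), both with an adjusted p above that of *Igfbp3*, at 0.887 and 0.884.

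On HFD none was called either (0.173% of all genes were), and edgeR gave *Igfbp5* and *Igfbp7* a nominal p of at most 0.05, as it gave 14.8% of all genes. *Igfbp5* differed by -1.10 between AKO and fl/fl mice (SE 0.43, adjusted p = 0.293) and *Igfbp7* by 0.56 (SE 0.27, adjusted p = 0.336). For both genes the HFD-fed fl/fl mice overlapped the HFD-fed AKO mice. The 19 mice gave differences of -0.03 (SE 0.37) for *Igfbp5* and 0.23 (SE 0.28) for *Igfbp7*. Averaged over both diets none of the 7 was called (0.0333% of all genes were), none had a nominal p of at most 0.05 by edgeR (4.6% of all genes had), and no absolute log2 difference was above 0.23. 

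The difference between the genotypes in the response to diet was tested as an interaction. None of the 7 was called, where 0.386% of all genes were, and edgeR gave 3 a nominal p of at most 0.05, as it gave 15.6% of all genes. *Igfbp5* had an interaction of -1.92 (SE 0.60, adjusted p = 0.238), *Igfbp3* of -1.58 (SE 0.67, adjusted p = 0.278) and *Igfbp7* of 0.94 (SE 0.38, adjusted p = 0.273). The interaction of *Igfbp5* was called in 1 of 24 fits with 1 mouse left out, at an adjusted p of 0.113 by edgeR. That fit lacked HFD-fed fl/fl replicate 2, the mouse with the lowest *Igfbp5* at 34.9 CPM. Since that mouse is extreme in the gene tested, nothing is drawn from the call. Among the 19 mice none of the 3 had a nominal p of at most 0.05, and the interaction of *Igfbp5* was -0.89 (SE 0.49, adjusted p = 0.475). A response to diet of *Igfbp5* or *Igfbp7* that is larger in AKO mice was therefore not shown after adjustment.

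The make-up of the binding protein transcripts was compared within each library, which does not depend on scaling between libraries. *Igfbp4* and *Igfbp7* together held most of the summed counts of the 5 binding proteins. *Igfbp7* held 32.3% ± 11.9 of the sum in chow-fed AKO and 54.9% ± 2.41 in HFD-fed AKO mice (SD, n = 6). Each HFD-fed AKO mouse (51.5% to 57.7%) was above each chow-fed AKO mouse (18.7% to 49.6%). The CPM of *Igfbp7* separated these mice in the same way, as did that of 6.86% of all genes tested. The shares are therefore not a further result for *Igfbp7*. *Igfbp4* held 51.6% ± 6.80 and 38.3% ± 1.72 in the same groups, and *Igfbp5* 12.8% ± 5.57 and 3.50% ± 1.34. Shares of 1 sum depend on each other, so a larger share of *Igfbp7* lowers the rest. The level of *Igfbp4* in CPM was not called for diet in AKO mice (log2 difference -0.18, SE 0.17, adjusted p = 0.430 by edgeR). In fl/fl mice *Igfbp7* held 44.8% ± 11.9 on chow and 43.0% ± 12.5 on HFD, *Igfbp4* 43.9% ± 8.08 and 43.9% ± 6.99, and *Igfbp5* 8.14% ± 3.52 and 8.71% ± 6.34. *Igfbp6* held 2.67% to 3.88% and *Igfbp3* 0.247% to 0.649% by group mean.

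**Figure D3:**
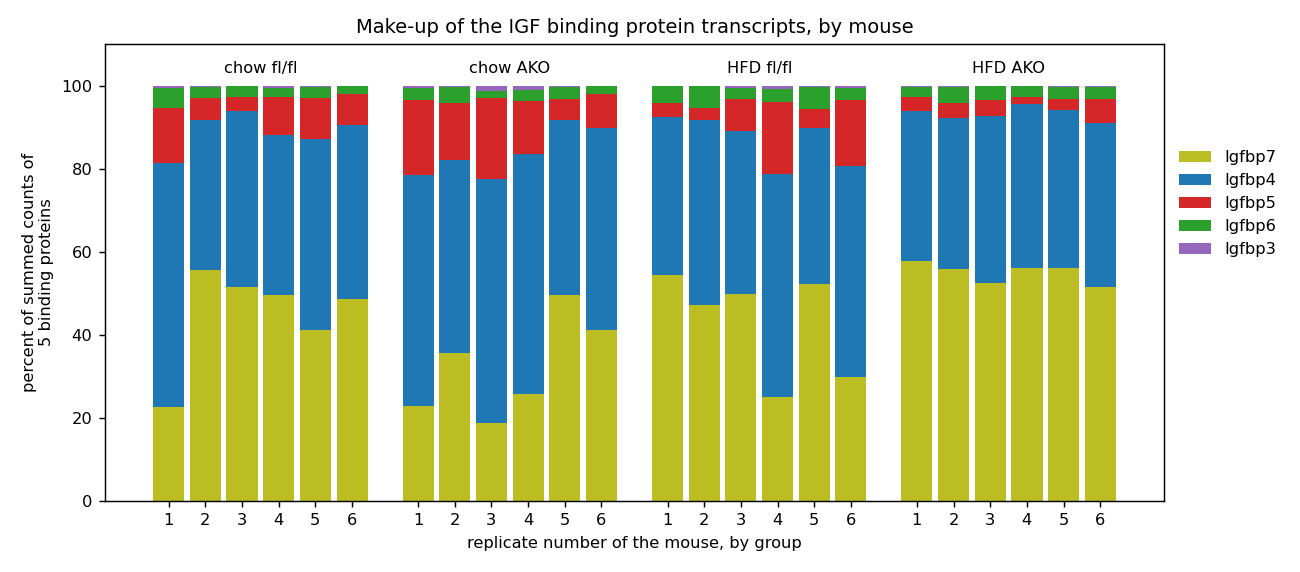
Percent of the summed counts of the 5 binding proteins held by each, with 1 bar per mouse, by group. *Igfbp7* holds 51.5% to 57.7% in the 6 HFD-fed AKO mice, which look alike, and 18.7% to 49.6% in the chow-fed AKO mice, which do not.

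The summed level of the 5 binding proteins was 1602 ± 198 CPM in chow-fed AKO and 1910.1 ± 161 CPM in HFD-fed AKO mice, and 1489.9 ± 208 and 1636 ± 354 CPM in fl/fl mice on chow and HFD (SD, n = 6). The log2 ratio of *Igf1* to this sum had group means of -0.99 ± 0.36 (chow-fed fl/fl), -1.29 ± 0.34 (chow-fed AKO), -1.10 ± 0.41 (HFD-fed fl/fl) and -1.21 ± 0.10 (HFD-fed AKO). None of 4 differences passed a two-sided exact permutation test. By that exact test they were -0.11 for diet in fl/fl mice (p = 0.641), 0.08 for diet in AKO mice (p = 0.606), -0.30 for genotype on chow (p = 0.171) and -0.11 for genotype on HFD (p = 0.519), each with an adjusted p of 0.641. With *Igfbp7* left out of the sum, the difference between diets in AKO mice was 0.65. *Igfbp7* was itself called higher on HFD in these mice, so leaving it out raises this difference, and no test is drawn from it. With *Igfbp7* in the sum and without chow-fed AKO replicate 1, the difference between diets in AKO mice was -0.03. For genotype on chow the difference was -0.45 without chow-fed fl/fl replicate 1, whose ratio of -1.71 lay far below the -0.94 to -0.79 of the other 5. That mouse was picked by this same ratio, so no test is drawn from the difference without it.

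Mice of one group varied together in several members. Correlations were taken over 24 mice on log2 CPM after the group means were removed, and are descriptions, since the points share the dissection, the depth and the cell make-up of each library. *Igf1* and *Igfbp7* had r = 0.88, the highest of the 21 pairs, *Igfbp3* and *Igfbp5* had r = 0.73, and *Igfbp4* and *Igfbp5* had r = 0.56. *Igf1* ran against its receptor (r = -0.71) and against *Igfbp5* (r = -0.67), and *Igfbp7* against *Igf1r* (r = -0.68) and *Igfbp5* (r = -0.62). The same 7 values over the 19 mice were 0.82, 0.68, 0.67, -0.53, -0.32, -0.67 and -0.21. *Igfbp6* was within 0.43 of 0 with every other member over 24 mice, but over the 19 mice it had r = 0.58 with *Igfbp4* and 0.55 with *Igfbp5*.

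Many other genes varied along with the members. The first principal component of these residuals held 41.2% of the variance of all genes, and 54.2% of genes tested had an absolute r above 0.5 with it. *Igf1* (0.86) and *Igfbp7* (0.83) were at one end, *Igfbp5* (-0.89), *Igf1r* (-0.71) and *Igfbp3* (-0.65) at the other, *Igfbp4* was at -0.44 and *Igfbp6* at 0.09. Over the 19 mice *Igfbp6* was at -0.59, on the side of *Igfbp5* (-0.73). Markers of the cell types of the tissue moved along with the members. *Igfbp5* had r = 0.91 with the summed level of 10 adipocyte markers, 0.86 with 8 mural cell markers, 0.84 with 10 endothelial markers and -0.86 with 10 macrophage markers. *Igfbp7* had r = -0.79 with the mural, -0.78 with the endothelial, 0.77 with the macrophage and -0.70 with the adipocyte markers, and *Igf1* had -0.79, -0.82, 0.81 and -0.76 with the same 4 lists. Other lists also moved with these genes. Lymphocyte markers had r = 0.71 with *Igfbp7* and 0.65 with *Igf1*, and red blood cell genes had 0.71 with *Igfbp5*. *Igfbp6* had its largest absolute r with mesothelial markers (0.63, and 0.76 in the 19 mice). Over the 19 mice the r of *Igfbp5* with adipocyte markers was 0.79 and that of *Igfbp7* with macrophage markers 0.58.

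**Figure D4:**
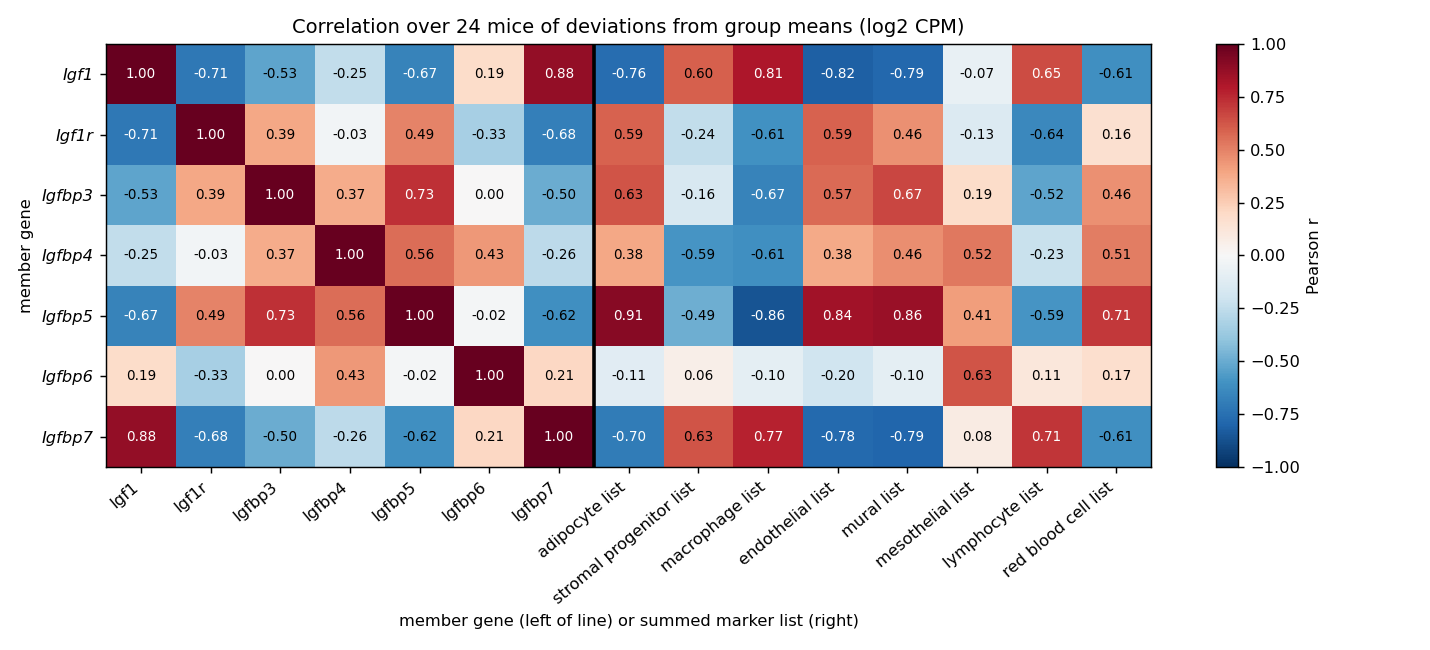
Pearson r, over 24 mice and after removal of group means, between each of the 7 genes (rows) and the others (left of the line) or the summed level of a marker list (right of it). *Igf1* and *Igfbp7* (r = 0.88) are red with macrophage markers and blue with adipocyte markers, *Igfbp5* is the reverse, and *Igfbp6* is pale except with mesothelial markers (0.63) and *Igfbp4* (0.43).

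The marker lists are given for diet in AKO mice, beside the calls of *Igfbp5* and *Igfbp7*. Their counts stand beside 39.8% of all genes at a nominal p of at most 0.05 and 4.12% called. The adipocyte markers summed to 15470.4 to 42481 CPM in chow-fed AKO and 9008 to 24899.9 CPM in HFD-fed AKO mice, with 9 of 10 at a nominal p of at most 0.05, all 9 lower, and 1, *Lep*, called (leptin; log2 difference -2.10, adjusted p = 0.0170 by edgeR). The macrophage markers summed to 1607 to 6014 and 5308 to 7407 CPM, with 3 of 10 higher and 1 lower at that p and none called. Endothelial markers summed to 605 to 1302 and 422 to 876 CPM, with 10 of 10 lower at that p and none called, and mural markers to 307 to 1092 and 242 to 393 CPM. Stromal progenitor markers summed to 3888 to 6662 and 5949 to 7154 CPM, with 7 of 10 higher at that p and 1, *Pdgfra*, called (0.69, adjusted p = 0.0210). Mesothelial markers summed to 36.8 to 218 and 12.4 to 78.8 CPM, with 1, *Msln* (mesothelin), called (-2.36, adjusted p = 0.0188). Lymphocyte markers summed to 15.4 to 139.7 and 16.8 to 106 CPM, and red blood cell genes to 1410.2 to 4995 and 1505 to 4437 CPM. The part of these differences in the results for *Igfbp5* and *Igfbp7* was not tested.

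**Figure D5:**
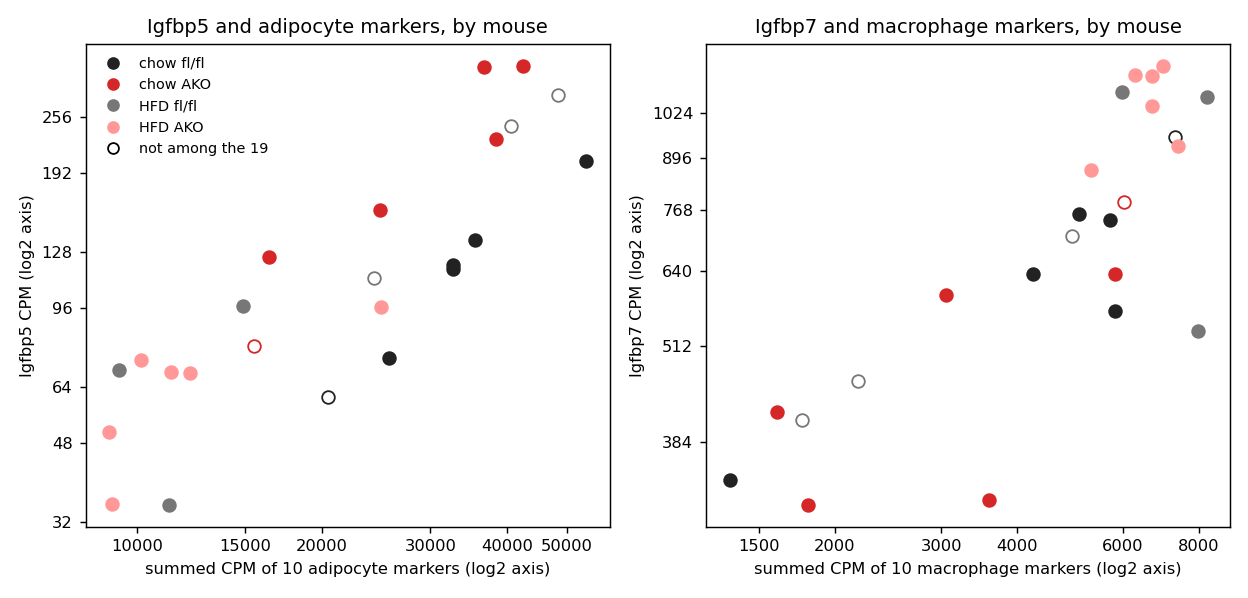
*Igfbp5* against the summed CPM of 10 adipocyte markers (left) and *Igfbp7* against that of 10 macrophage markers (right), with 1 point per mouse on log2 axes, coloured by group and open for the 5 mice not among the 19. After removal of group means both genes rise with their marker sum (r = 0.91 and 0.77). Group means of *Igfbp5* follow the adipocyte sum only in part. HFD-fed AKO mice are lowest in both (12782 CPM for the sum, 65.6 CPM for *Igfbp5*). Chow-fed fl/fl mice have the highest adipocyte sum (33464 CPM), but chow-fed AKO mice the highest *Igfbp5* (209 CPM). On the left 5 of the 6 HFD-fed AKO mice have low sums and on the right high sums, where replicate 6 has a macrophage sum of 5308 CPM. HFD-fed fl/fl replicates 1 and 2 have sums at the same ends, and replicate 2 (macrophage sum 7981 CPM) has *Igfbp7* at 535 CPM.

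The genes most like each member over the 24 mice, by the same correlation, are given for description only. For *Igfbp5* they were *Dmrt2* (r = 0.97), *Maob* (0.96) and *Npr3* (0.96), which encode a transcription factor, a mitochondrial amine oxidase and the natriuretic peptide clearance receptor. For *Igfbp7* they were *Rpl17* (0.94), *Sec11c* (0.92) and *Mis18a* (0.92), and for *Igf1* they were *Cltc* (0.94), the clathrin heavy chain, *Tceal9* (0.93) and *Calhm5* (0.93). *Igf1r* was closest to *Gm43482* (0.93), *Apc* (0.93) and *Gm7265* (0.92), *Igfbp3* to *Lgr4* (0.88), *Mgst3* (0.87) and *Cystm1* (0.87), and *Igfbp4* to *Plpp6* (0.88), *Plcd1* (0.86) and *Slc25a23* (0.86). *Igfbp6* was closest to *Adgrd1* (0.92), an adhesion receptor, *Klhl22* (0.86) and *Scn3b* (0.83).

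The rest of the IGF pathway was read from lists that include *Igf1* and *Igf1r*. For diet in AKO mice the median log2 difference was -0.75 over 3 ligands and carriers, -0.40 over 10 further binding proteins, 0.42 over 6 receptors, -0.29 over 12 adaptors and inhibitors, 0.22 over 19 genes of the PI3K and AKT arm, 0.40 over 11 proteases and their inhibitors and 0.05 over 9 genes of the growth hormone list, against -0.18 over the 7 members and -0.0031 over all genes. Among ligands and the acid-labile subunit, none of 3 tested genes was called for diet in either genotype. The counts of these lists stand beside 4.12% of all genes called in AKO mice, 0.173% in fl/fl mice and 2.25% over both genotypes. *Igfals*, which holds IGF and IGFBP3 in the large serum complex, ran from 23.9 to 103 CPM in chow-fed AKO and from 9.98 to 40.7 CPM in HFD-fed AKO mice (log2 difference -1.70, SE 0.48, adjusted p = 0.0231), just outside the call. *Igf2* was at 6.14 ± 1.79 and 3.65 ± 1.67 CPM (-0.75, adjusted p = 0.164). Of 10 other genes of the binding protein superfamily, which include the CCN and related secreted proteins, none was called in AKO or fl/fl mice and 1 over both genotypes. This was *Igfbp2*, a binding protein of low level here, with 1.92 ± 1.19 CPM in chow-fed fl/fl, 2.20 ± 1.16 in chow-fed AKO, 0.861 ± 0.507 in HFD-fed fl/fl and 0.517 ± 0.502 in HFD-fed AKO mice (-1.62, SE 0.42, adjusted p = 0.0261). Its highest group mean was close to the 2 CPM of the call and would not pass a limit of 2 on the log2 scale.

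At the receptor and below it, none of 6 receptors was called for diet, and *Lrp1*, a large endocytic receptor that also binds IGFBP3, ran from 193 to 672 CPM in chow-fed AKO and from 549 to 788 CPM in HFD-fed AKO mice (0.89, SE 0.28, adjusted p = 0.0295). *Itgb3*, the integrin beta 3 subunit, differed by 0.91 (SE 0.30, adjusted p = 0.0345). Of 12 adaptors and inhibitors none was called, and *Irs3*, a rodent insulin receptor substrate, differed by -0.98 (SE 0.33, adjusted p = 0.0386) in AKO mice, and *Sh2b1*, an adaptor of these receptors, by 0.67 in fl/fl and 0.71 in AKO mice. In the PI3K and AKT arm, 3 of 19 genes were called for diet in AKO mice (4.12% of all genes) and none in fl/fl mice (0.173%). *Pik3r1*, the main regulatory subunit of PI3K, was at 83.5 to 206 CPM in chow-fed AKO and 32.1 to 83.1 CPM in HFD-fed AKO mice, 2 ranges that do not overlap (as for 6.86% of all genes), and fell by 1.72 on the log2 scale (SE 0.35, adjusted p = 0.0124). *Gsk3b*, a kinase that AKT inhibits, fell by 0.59 (SE 0.15, adjusted p = 0.0187), and *Foxo3*, a transcription factor that AKT keeps out of the nucleus, rose by 0.98 (SE 0.25, adjusted p = 0.0186). Over both genotypes *Pik3r1* (-1.08), *Pik3r3* (-0.94), another regulatory subunit, and *Foxo3* (0.68) were called. In the 19 mice, diet in fl/fl mice called 3 genes of this arm higher and 2 lower, where 11.8% of genes were called. In AKO mice 4 were called higher and 4 lower there, where 15.7% of genes were called. *Pik3r1* differed there by -1.61 in fl/fl and by -1.85 in AKO mice.

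Among proteases of the binding proteins and their inhibitors, none of 11 was called for diet in the 24 mice. *Stc2*, an inhibitor of PAPP-A, ran from 2.22 to 21.5 CPM in chow-fed AKO and from 1.43 to 5.01 CPM in HFD-fed AKO mice (-1.74, SE 0.49, adjusted p = 0.0234), and *Adam12*, a metalloprotease that cuts IGFBP3 and IGFBP5, from 15.7 to 38.8 and from 36.9 to 61.2 CPM (0.88, SE 0.26, adjusted p = 0.0255). In the growth hormone list, whose receptor drives *Igf1* transcription through STAT5, none of 9 was called. *Ghr*, the receptor, ran from 310.1 to 1148 CPM in chow-fed AKO and from 199 to 380.1 CPM in HFD-fed AKO mice (-1.51, SE 0.42, adjusted p = 0.0227), and *Stat5b* differed by 0.39 in fl/fl and 0.47 in AKO mice (SE 0.14 in both, adjusted p = 0.448 and 0.0271). Of the genes named from these lists, *Igfals*, *Lrp1*, *Sh2b1*, *Pik3r3*, *Stc2*, *Adam12* and *Ghr* were called in addition for diet in AKO mice when the 19 mice were used, where 15.7% of genes were called. For diet in fl/fl mice the 19 mice called *Pik3r1* (-1.61), *Pik3r3* (-1.48), *Foxo3* (0.91), *Sh2b1* (1.39) and *Stat5b* (0.68), where 11.8% of genes were called. For genotype on either diet, no gene of these 7 lists was called.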

How the data were processed

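The authors made QuantSeq 3′ libraries from eWAT RNA, read 50 bases, ran the Lexogen QuantSeq pipeline for mapping and counting, and deposited raw read counts per gene and mouse (GRCm38). The deposited normalised signal, which the authors made by dividing counts by a size factor per library (DESeq2 1.30, R 4.0.3 in their processing notes), gave symbols and positions only. No gene of the count table had under 72 counts in all. Counts of 24 mice were fitted in R 4.3.3 with edgeR 4.0.16 (TMM factors, quasi-likelihood, 1 coefficient per group, genes at 1 CPM or more in 3 or more mice), with p-values adjusted by Benjamini-Hochberg over 15020 genes. The call criteria and filter are those in the methods of the study. Its own tool was limma-voom on the mice left after outliers were removed.

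Members and lists were chosen with earlier results of these data known. Named genes are the members, each called gene of the pathway lists or else the 2 of a list with the lowest p for diet, and the 3 genes most like each member. Precision is set by the 6 mice per group, each a separate animal. Libraries of a group (60 pairs) differed beyond counting noise. Groups share replicate numbers, which do not pair the mice. In simulated counts for diet in AKO mice (14826 genes), edgeR called 72 of 100 genes changed by 1 log2 unit and 97 of 100 changed by 2. It also called 8 unchanged genes there. In simulated counts for genotype on chow, with 0 genes changed, it called 12. Whether these rates hold for the counts of the mice, in which many genes varied together, was not tested. Alternatives were limma 3.58.1 (voom), DESeq2 1.42.0, RLE factors, no filter, adjusted p, fewer groups in the fit, the replicate number as a block, 19 mice, and each mouse left out.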

Additional observations from a re-analysis of the deposited data

Results flagged for a closer look

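In 32 sets of 6 mice (7 members and the ratio of *Igf1* to summed binding proteins, in 4 groups), 2 held a mouse far from the others by Dixon's criterion, and chance gives about 1 in 20. *Igfbp6* was at 80.4 CPM in HFD-fed AKO replicate 2, against 50.2 to 59.3 CPM in the other 5 mice of the group. The log2 ratio of *Igf1* to the summed binding proteins was -1.71 in chow-fed fl/fl replicate 1, where *Igf1* (466 CPM) and *Igfbp7* (343 CPM) were the lowest of the group and *Igfbp4* (898 CPM), *Igfbp5* (204 CPM) and *Igf1r* (46.3 CPM) the highest.

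The response to diet differed between genotypes at a nominal p of at most 0.05 of edgeR's interaction term for 3 members, and for none after adjustment over all genes. The interaction was -1.92 for *Igfbp5* (adjusted p = 0.238), -1.58 for *Igfbp3* (adjusted p = 0.278) and 0.94 for *Igfbp7* (adjusted p = 0.273). In the 19 mice it was -0.89, -0.73 and 0.64, none at a nominal p of at most 0.05.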

How the results depend on the processing

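The number of members called for diet in AKO mice, 2 with all mice, was 1 by limma-voom, which lost *Igfbp5* (log2 difference -1.53), and 0 to 2 with 1 mouse left out. For diet over both genotypes it was 0 with all mice, 3 in the 19 mice, 4 by limma-voom on the 19 mice (*Igf1r*, *Igfbp5*, *Igfbp6* and *Igfbp7*), and 0 to 1 with 1 mouse left out. For the interaction it was 0 to 1 with 1 mouse left out. DESeq2, RLE factors, no filter, adjusted p and fits of the compared groups alone left all counts of members called within 1.5 times. No value named here that was called changed sign.

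Replicate numbers do not pair the mice: 36 pairs of the same number in different groups had a median r of 0.00112 (-0.534 to 0.714), and 5 of 24 libraries correlated best with their own number. With the replicate number as a block, 0 members were called for diet in AKO mice (log2 difference -1.65 for *Igfbp5* and 1.08 for *Igfbp7*). For the ratio of *Igf1* to binding proteins and genotype on chow (-0.30), pairing by number gave an exact paired permutation p of 0.0312, the smallest that 6 pairs allow. The unpaired exact permutation p was 0.171. Since the numbers do not pair the mice, the paired p is not read as a difference. The block changed no other call.

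That ratio moved in the 19 mice to 0.20 for diet in fl/fl mice (exact permutation p = 0.607) and to -0.39 for genotype on HFD (exact permutation p = 0.0476). The HFD-fed fl/fl mice left out there were set aside on their expression. Among them, replicates 4 and 6 had the lowest ratios of the group (-1.63 and -1.47). The p of 0.0476 by the exact permutation test is therefore not read as a difference between genotypes. With *Igfbp7* out of the sum the difference in the ratio was 0.65 for diet in AKO mice and 0.20 for genotype on HFD (exact permutation p = 0.474). With 1 mouse left out it ran from -0.45 to -0.19 for genotype on chow and from -0.029 to 0.14 for diet in AKO mice. The causes were not tested. Depth limits *Igfbp3* most, at 21 counts in its lowest library.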
